A study of Mus musculus with 15 samples.

Results

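The phase II conjugating transferases of mouse liver are described here across chemically induced liver tumours and normal liver. The genes were taken by symbol, as every row of the count table that names a UDP-glucuronosyltransferase of family 1, 2 or 3 (Ugt), a cytosolic sulfotransferase (Sult) or a glutathione S-transferase of the alpha, kappa, mu, omega, pi, theta or zeta class (Gst). This gave 59 of the 23284 symbols, made up of 20 Ugt, 18 Sult and 21 Gst genes. The rule reads symbols and no measured value, but it was set with earlier results of these data known.

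Poly-A RNA of whole tissue was sequenced in 15 libraries. Of these, 6 came from liver tumours of Hgmb1Dhep mice (spelled so in the labels), which carry floxed Hmgb1 alleles and Albumin-Cre, a recombinase under the albumin promoter, which is active in hepatocytes and their progenitors, so that cells outside that lineage keep the gene. Another 6 came from tumours of floxed control mice (Hgmb1fl/fl), and 3 from normal livers of C57Bl/6 control mice. Both tumour groups had received the carcinogen DEN (diethylnitrosamine), injected at 25 mg/kg on day 15 of life, and the liver toxin CCl4 (carbon tetrachloride) in corn oil at 0.5 µl/g each week for 15 weeks from week 8. No treatment or age is given for the normal livers and no strain for the tumour mice, and no treated liver without a tumour was among the samples. Differences from normal liver therefore cannot be told apart from effects of treatment, age, strain or genotype. The labels do not say that each tumour came from its own mouse, and the p-values rest on the variation among these libraries, some of which may be technical.

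Phase II enzymes attach a polar group to drugs, toxins, steroids, bile pigments and hormones, so that the product dissolves in water and can leave through bile or urine. The Ugt enzymes sit in the endoplasmic reticulum and add glucuronic acid from UDP-glucuronate, the Sult enzymes add sulfate from PAPS, and the Gst enzymes add glutathione to reactive electrophiles. Hepatocytes are the main site of all 3 reactions in the body, and in mouse liver several of the genes, among them Sult2a1, Sult3a1, Gstp1 and Ugt2b1, are known to differ between the sexes.

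Library totals ran from 18973246 to 30929442 counts. Levels are given in CPM, counts scaled to the size of the library with TMM factors over all 15 libraries, which are not corrected for gene length and so are compared between samples and never between genes. A gene with 0 counts in a library could have been at up to 0.110 to 0.169 CPM there, which covers counting error only (3 counts). Hmgb1 averaged 14.8 ± 2.76 CPM in Hmgb1-deleted tumours, 27.9 ± 3.36 CPM in floxed tumours and 23.9 ± 6.07 CPM in normal liver (SD, n = 6, 6 and 3). All 15 libraries had Ddx3y, a Y-linked gene, at 55.1 to 98.5 CPM and Xist, which marks the inactive X chromosome, at 0 to 0.985 CPM, so both tumour groups and normal liver showed a male pattern. Hepatocyte markers were present in every library, and the 7 markers summed to 71622 to 173597 CPM in Hmgb1-deleted tumours, 109555 to 285808 CPM in floxed tumours and 111606 to 138607 CPM in normal liver, most of it Alb. The members differed: against normal liver, Apoa1 and Serpina1a rose and Cps1 and Tat fell in floxed tumours, and Cps1 and Tat fell in Hmgb1-deleted tumours. Cps1, a urea cycle enzyme, averaged 553 ± 267 CPM in Hmgb1-deleted tumours, 454 ± 125 CPM in floxed tumours and 3811 ± 388 CPM in normal liver, and the part of such changes in the results was not tested. Over all genes, the leading principal component (48.1% of the variance) placed tumours 3, 4 and 6 of the Hmgb1-deleted group at 18.97, 25.2 and 8.02 and the other 3 at -20.96 to -19.7, against -51.3 to -30.8 for floxed tumours and 81.6 to 82.7 for normal liver. On the next component (16.6%), tumours 2 and 5 of the Hmgb1-deleted group had the lowest scores, at -58.4 and -64.1. Where a call of a named gene depends on either set of tumours, it is given with and without them.

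Of the 59 genes, 13 passed the filter on low counts in no comparison, with at most 2.02 CPM in any library, and Ugt2a1 and Ugt2a2 had 0 counts in all 15. The 13 were Sult1c1, Sult2a1, Sult2a3 to Sult2a6, Sult3a1, Sult6b1, Gsto2, Gstt4, Ugt1a2, Ugt2a1 and Ugt2a2, and 44 genes were tested in every comparison. Ugt1a10 and Ugt1a7c were tested in some comparisons only. Read assignment limits some of the others. Of the distinct stretches of 50 bases in a gene's transcripts (GENCODE M21), under 50% were found in no other gene for 13 of the 59 genes, and at least 95% for 27. The 9.5% for Gsta1, 20.2% for Ugt1a6b, 37.9% for Sult2a2, 38% for Ugt1a9 and 45.7% for Gstp2, and the 2.98% and 6.4% for Ugt2a1 and Ugt2a2 that were at 0, make their counts uncertain, because reads that match several copies may have been dropped or split. Ugt2b5 (58.3%) shares 34.8% of its stretches with Ugt2b38, and Ugt2b38 (62.6%) shares 34.1% with Ugt2b5. Gsta2 (50.2%) shares 36% of its stretches with Gsta1. Sult2a7, Sult4a1, Sult1e1, Sult1b1, Ugt2b1, Gsta4 and Gstk1 were at 100%.

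Floxed tumours were compared with normal liver first, a comparison that asks how the conjugating enzymes stand in tumours in which Hmgb1 is intact. Every one of the 15 tested Ugt genes fell. The sulfotransferases split, with Sult5a1 and Sult1b1 lower and Sult4a1 and Sult2a2 higher. The glutathione S-transferases split as well, with Gsta1, Gstp2 and the mu class genes Gstm1, Gstm3 and Gstm5 higher and Gsta3, Gstk1 and Gstp1 lower. In all, 10 genes rose and 24 fell of 44 tested (adjusted p under 0.05, edgeR quasi-likelihood test with Benjamini-Hochberg adjustment over all genes), while 24.9% of all 13784 tested genes rose and 23.8% fell (48.7% in either direction). The median log2 fold change was -0.84 over the 44 genes, also with the 2 genes that lack counts in normal liver (Sult1e1 and Sult2a2) at their lower bounds, and 0.06 over all genes.

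Summed over the family, Ugt RNA was at 921, 1509 and 1824 CPM in floxed tumours, against 5289, 5601 and 5760.0 CPM in normal liver. Here and below, 3 CPM values of a group are its lowest, median and highest library, which for normal liver are its 3 libraries. Less RNA per cell and fewer cells that make it cannot be told apart in bulk tissue. The median log2 fold change of the 15 tested Ugt genes was -2.29, and in each of them every floxed tumour lay below every normal liver, as in 23.4% of all tested genes.

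The Ugt1a genes form one cluster in which each member has its own promoter and opening exon, spliced to exons that all of them share. Ugt1a9, which conjugates phenols and fatty acids, was at 0.871, 1.57 and 2.72 CPM in floxed tumours and at 44.6, 50.03 and 57.6 CPM in normal liver. The highest floxed tumour lay far below the lowest normal liver, with a log2 fold change of -4.94 ± 0.27 (SE) and an adjusted p of 1.24e-06. Ugt1a1, the bilirubin-conjugating enzyme, was at 12.4, 35.9 and 94.7 CPM in floxed tumours and at 305, 307 and 342 CPM in normal liver. It varied more among the floxed tumours, with tumour 6 highest and tumour 1 lowest, and fell by 2.92 ± 0.49 on the log2 scale (adjusted p = 0.000859). The other tested members of the cluster, Ugt1a5, Ugt1a6a and Ugt1a6b, fell by 2.01 to 2.31.

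Ugt2b1, a glucuronosyltransferase of steroids and drugs, was at 78.5, 111 and 146 CPM in floxed tumours and at 933, 1098 and 1146 CPM in normal liver. The floxed tumours lay close together, far below the normal livers (log2 fold change -3.27 ± 0.23, adjusted p = 4.78e-06). Ugt2b38, a close relative, was at 0.0398, 0.288 and 0.735 CPM in floxed tumours and at 10.97, 13.3 and 22.2 CPM in normal liver, a log2 fold change of -5.67 ± 0.56 (adjusted p = 3.37e-05). Floxed tumours held at most 17 counts of Ugt2b38, which passed the filter on low counts through the normal livers. The smallest fall of the family was that of Ugt2b35, which was chosen after its values were seen, at -0.91 ± 0.24 (adjusted p = 0.0116). Ugt3a1, whose human relative transfers N-acetylglucosamine instead of glucuronic acid, was at 0.447, 2.01 and 2.68 CPM in floxed tumours and at 61.5, 68.3 and 90.1 CPM in normal liver. It fell by 5.33 ± 0.39 on the log2 scale (adjusted p = 6.18e-06).

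**Figure D1:**
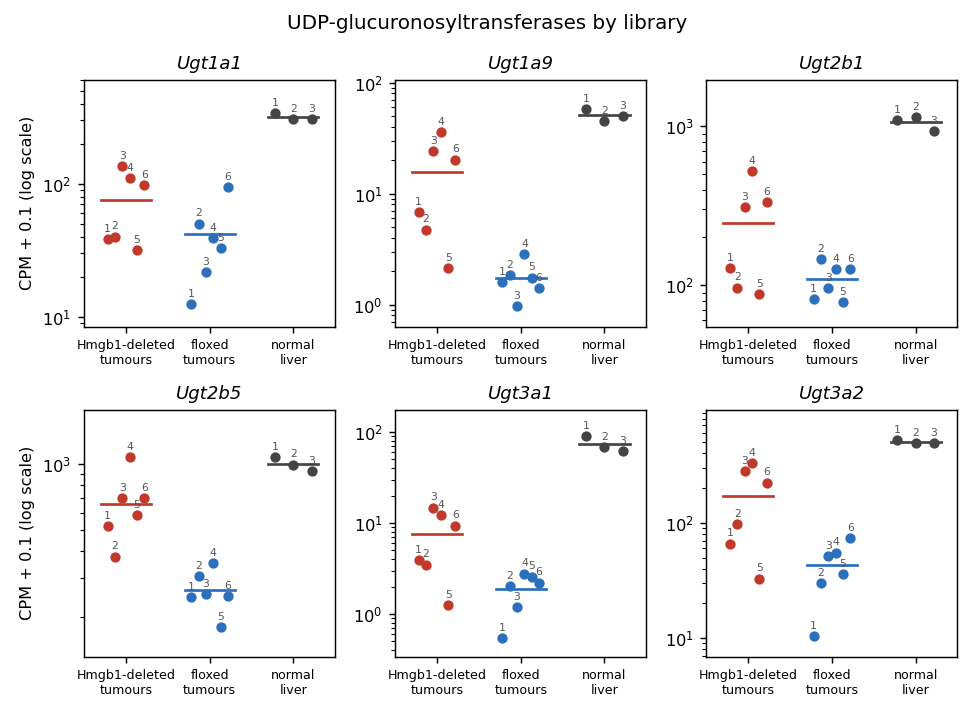
CPM plus 0.1 of 6 Ugt genes in each library on a log scale, for Hmgb1-deleted tumours (left), floxed tumours and normal liver (right), with replicate numbers beside the points and group means as bars. Normal livers lie above all floxed tumours in each panel, and Hmgb1-deleted tumours 3, 4 and 6 lie above tumours 1, 2 and 5 in each panel.

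Among the sulfotransferases, Sult5a1, a little studied enzyme, was at 0, 0.470 and 0.816 CPM in floxed tumours and at 14.6, 21.7 and 25.5 CPM in normal liver (log2 fold change -5.57 ± 0.66, adjusted p = 9.91e-05). Sult1b1, which sulfates thyroid hormones, was at 4.37, 8.54 and 14.9 CPM in floxed tumours and at 26.4, 27.5 and 47.1 CPM in normal liver, and fell by 1.93 ± 0.35 (adjusted p = 0.00143). Neither pair of groups overlapped. In the other direction, Sult4a1, known from brain and without a settled substrate, was at 2.70, 6.68 and 18.8 CPM in floxed tumours and at 0.0492, 0.0815 and 0.122 CPM in normal liver. All 6 floxed tumours lay above all normal livers, which were at or below the level that 3 counts give (log2 fold change 6.41 ± 0.88, adjusted p = 0.000242).

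Sult2a2, a hydroxysteroid sulfotransferase, had no counts in the 3 normal livers and was at 0.118, 2.88 and 41.7 CPM in floxed tumours. Floxed tumour 2 alone stood at 41.7 CPM and the next at 5.71 CPM. The group mean was at least 211-fold higher than 3 counts over the normal livers (adjusted p = 0.0225), and the call ended when any 1 normal liver was left out (adjusted p = 0.0547 to 0.0603). The related Sult2a1 was not tested; it reached 2.02 CPM in floxed tumour 2, with 0.437 CPM as the next value, and had no counts in normal liver. Sult3a1, an amine sulfotransferase, stayed at or below 0.653 CPM in floxed tumours and 0.0985 CPM in normal liver. Sult1a1, the main phenol sulfotransferase, was at 181, 321 and 459.8 CPM in floxed tumours and at 145, 162 and 253 CPM in normal liver, ranges that overlapped (log2 fold change 0.78 ± 0.32, adjusted p = 0.0666); it passed without floxed tumour 1 (adjusted p = 0.0449) or 5 (adjusted p = 0.0214). The Sult counts were 4 higher (Sult4a1, Sult2a2, Sult2b1 and Sult1e1) and 3 lower (Sult5a1, Sult1b1 and Sult2a7) of 10 tested. The 4 higher genes had at most 4 counts in any normal liver and passed the filter on low counts through the tumours. Low genes that did not rise were left untested, so the share of 10 depends on the filter. Without that filter Sult2a2 was not called (adjusted p = 0.0574). Sult2b1, Sult1e1 and Sult2a7 are named here after their values were seen.

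The glutathione S-transferases did not move as a family. Gsta1, an alpha class enzyme that antioxidants induce, was at 2.56, 32.9 and 66.6 CPM in floxed tumours and at 0.285, 0.447 and 1.13 CPM in normal liver. The groups did not overlap, and floxed tumour 3 was the lowest of its group (log2 fold change 5.91 with an SE of 1.001, adjusted p = 0.000942). Normal livers 1 to 3 held 11, 7 and 23 counts of Gsta1, which passed the filter on low counts through the tumours. Gsta4, which conjugates the lipid peroxidation product 4-hydroxynonenal, was at 103, 147 and 202 CPM in floxed tumours and at 47.9, 53.4 and 76.1 CPM in normal liver (log2 fold change 1.37 ± 0.26, adjusted p = 0.00186). Gsta3, which detoxifies the epoxide of aflatoxin in mice, went the other way, at 285, 425 and 624 CPM in floxed tumours against 1648, 1721 and 1751 CPM in normal liver. It fell by 1.96 ± 0.25 (adjusted p = 0.000141). Gsta2 was at 8.38, 17.2 and 27.1 CPM in floxed tumours and at 7.01, 10.1 and 19.1 CPM in normal liver and was not called (adjusted p = 0.298).

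In the mu class, Gstm1 was at 1251, 2119 and 3559.7 CPM in floxed tumours and at 654, 715 and 922 CPM in normal liver (log2 fold change 1.52 ± 0.34, adjusted p = 0.00445). Gstm3 was at 81.8, 163 and 518 CPM in floxed tumours and at 39.0, 42.0 and 61.2 CPM in normal liver, with no overlap. It rose by 2.08 ± 0.59 (adjusted p = 0.0149), a call that ended without normal liver 1 or 2 (adjusted p = 0.0648 and 0.0614). Gstm5 rose by 1.44 ± 0.21 (adjusted p = 0.000404), while Gstm6 fell by 0.68 ± 0.17 (adjusted p = 0.00751). Gstk1, the kappa class enzyme of mitochondria and peroxisomes, fell by 1.63 ± 0.23 (adjusted p = 0.000264), to 32.5 ± 9.28 CPM in floxed tumours against 101 ± 14.8 CPM in normal liver (SD, n = 6 and 3). Of the 19 tested Gst genes 6 rose and 6 fell, and the 3 theta class genes passed in neither direction.

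The pair of pi class genes moved in opposite directions. Gstp1 was at 297, 313 and 513 CPM in floxed tumours and at 841, 873 and 926 CPM in normal liver. Every floxed tumour lay below every normal liver (log2 fold change -1.34 ± 0.20, adjusted p = 0.000441). Its neighbour Gstp2 was at 4.66, 11.8 and 82.9 CPM in floxed tumours and at 0.367, 0.443 and 0.447 CPM in normal liver. Every floxed tumour lay above every normal liver, with tumour 6 highest and the next tumour at 14.4 CPM (log2 fold change 5.72 ± 1.16, adjusted p = 0.00266). Normal livers 1 to 3 held 11, 9 and 9 counts of Gstp2, which passed the filter on low counts through the tumours. In the rat the pi class enzyme is a classic marker of early liver tumour lesions. The transcripts of Gstp2 share 49.1% of their 50-base stretches with Gstp1, so the split of reads between the 2 genes is uncertain. Their upstream stretches are printed because the genes are near copies that moved apart; they lie on the minus strand at chr19:4037913-4038162 and chr19:4042222-4042471 (RefSeq, GRCm38.p6, another build than the mm9 of the counts), and capitals mark TGAGTCA, the AP-1 site, searched on both strands.
Gstp1: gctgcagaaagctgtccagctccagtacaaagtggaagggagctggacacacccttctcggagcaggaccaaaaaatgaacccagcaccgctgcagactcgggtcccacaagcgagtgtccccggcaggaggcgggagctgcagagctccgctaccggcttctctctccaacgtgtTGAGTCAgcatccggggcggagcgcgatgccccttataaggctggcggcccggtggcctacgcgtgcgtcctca
Gstp2: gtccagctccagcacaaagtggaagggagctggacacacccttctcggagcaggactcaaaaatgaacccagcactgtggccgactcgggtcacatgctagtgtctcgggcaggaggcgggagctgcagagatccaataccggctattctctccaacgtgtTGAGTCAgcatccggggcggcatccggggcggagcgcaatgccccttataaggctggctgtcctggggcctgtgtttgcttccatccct
The 250-base stretches were 82.8% identical, and each holds 1 match, 74 bases before the start in Gstp1 and 89 bases before it in Gstp2. The site was present in 7 of 61 transferase promoters (11.5%; 51 of the 59 genes have an entry) and in 4.46% of all 32851 promoters, windows of the same length. The core of the antioxidant response element, spelled TGACNNNGC, was found upstream of Gsta3, Gstm5 and Gstm7 only, which is 3 of 61 promoters (4.92%) against 10.2% of all. Searches for CAAAGTCCA (HNF4) and for TTCC and GGAA parted by any 2 bases (STAT5) found no match among the transferases, against 0.384% and 0.703% of all promoters. These are letter matches in a window and not measured binding, and the spellings were chosen after the values, and for TGAGTCA the letters, had been seen.

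**Figure D2:**
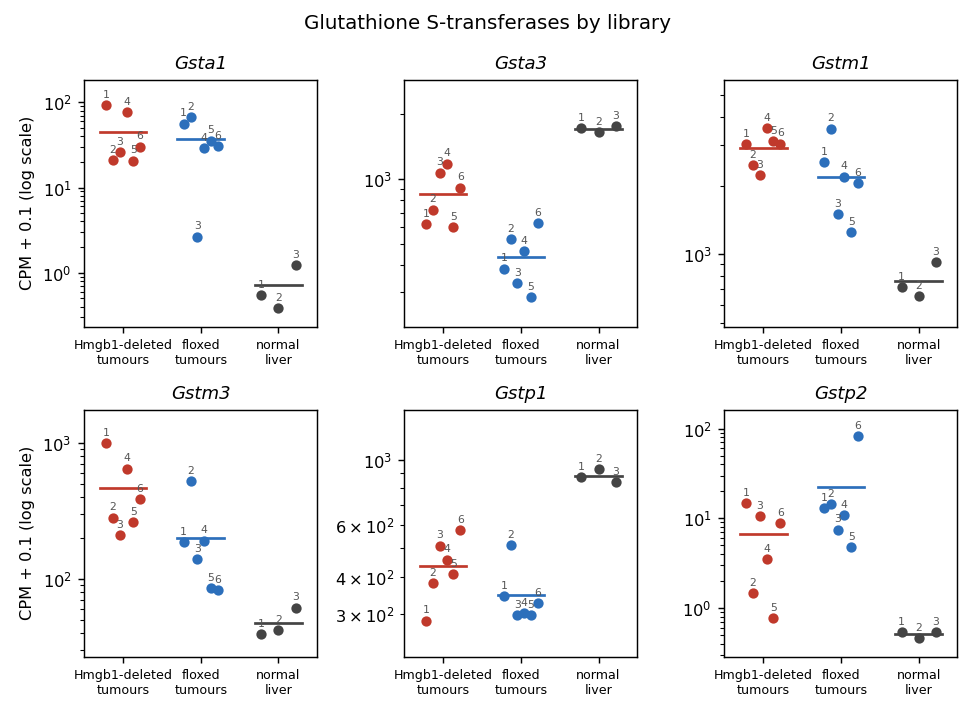
CPM plus 0.1 of 6 Gst genes in each library on a log scale, for Hmgb1-deleted tumours (left), floxed tumours and normal liver (right), with replicate numbers beside the points and group means as bars. Normal liver is lowest for Gsta1, Gstm1, Gstm3 and Gstp2 and highest for Gsta3 and Gstp1, and floxed tumour 6 stands at 82.9 CPM for Gstp2.

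Between the tumour groups the question is whether the same genes differ with the deletion of Hmgb1 in hepatocytes. Hmgb1-deleted tumours had more RNA of 7 Ugt genes, among them Ugt2b5, Ugt1a9 and Ugt2b38, of the sulfotransferases Sult2a7 and Sult1e1, and of Gsta2, Gsta3 and Gstk1. A single gene, Sult4a1, was lower. Of 45 genes tested, 12 rose, 1 fell and 32 were not called, while 4.45% of all 13433 tested genes rose and 3.33% fell (7.78% in either direction). The median log2 fold change was 0.75 over the 45 genes and 0.02 over all genes. By family, 7 of 16 Ugt genes rose, 2 of 10 Sult genes rose and 1 fell, and 3 of 19 Gst genes rose.

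Most of these calls were lost without tumours 3, 4 and 6 of the Hmgb1-deleted group, the 3 with the highest scores on the leading component. These tumours were chosen after seeing the data. That fit set 3 Hmgb1-deleted tumours against 6 floxed tumours, and the part of the smaller group in the lost calls was not tested. With tumours 3, 4 and 6 left out, 2 genes rose (Ugt2b5 and Gsta2) and 4 fell, when 2.47% of all genes rose and 3.33% fell. Without tumours 2 and 5, 13 rose and 3 fell, when 4.7% of all genes rose and 3.25% fell. Single libraries mattered as well: 4 genes rose without Hmgb1-deleted tumour 4, 7 without Hmgb1-deleted tumour 3, 7 without floxed tumour 1 and 7 without floxed tumour 3. In these fits 2.16%, 2.93%, 3.39% and 2.94% of all genes rose. Without Hmgb1-deleted tumour 2, Hmgb1-deleted tumour 5 or floxed tumour 5, 2 genes fell, as did 2.86%, 2.83% and 3.29% of all genes. Ugt2b5 and Sult4a1 kept their calls under every alternative run.

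Ugt2b5, a steroid and drug glucuronosyltransferase, was at 377, 641 and 1076 CPM in Hmgb1-deleted tumours and at 179, 250.3 and 353 CPM in floxed tumours. The groups did not overlap (log2 fold change 1.34 ± 0.24, adjusted p = 0.00816), and without tumours 3, 4 and 6 the log2 fold change was 0.90 (adjusted p = 0.0445). Ugt2b34 did not overlap between the groups either, at 447, 552 and 830.1 CPM in Hmgb1-deleted tumours and 243, 373 and 400.3 CPM in floxed tumours (log2 fold change 0.84 ± 0.20, adjusted p = 0.0262). Its call ended without Hmgb1-deleted tumour 4, floxed tumour 2 or floxed tumour 3 (adjusted p = 0.0657, 0.0505 and 0.0630), and without tumours 3, 4 and 6 (log2 fold change 0.78, adjusted p = 0.0954).

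Ugt1a9 was at 6.70, 4.64, 24.2, 35.9, 2.01 and 20.2 CPM in Hmgb1-deleted tumours 1 to 6, against 0.871 to 2.72 CPM in floxed tumours. Only Hmgb1-deleted tumour 5 fell inside the floxed range (log2 fold change 3.26 ± 0.62, adjusted p = 0.00948). Ugt2b38 was at 1.76, 0, 10.8, 20.8, 1.87 and 13.4 CPM in Hmgb1-deleted tumours 1 to 6, against 0.0398 to 0.735 CPM in floxed tumours, and rose by 4.76 ± 1.11 (adjusted p = 0.0221). Without Hmgb1-deleted tumour 4 it missed the threshold (adjusted p = 0.0538). Floxed tumours held at most 17 counts of Ugt2b38, which passed the filter on low counts mainly through the Hmgb1-deleted tumours. Ugt2b37 was at 8.05, 0.632, 4.67, 35.2, 1.31 and 5.05 CPM in Hmgb1-deleted tumours 1 to 6, against 0.596 to 1.12 CPM in floxed tumours (log2 fold change 3.47 ± 0.81, adjusted p = 0.0221); without tumour 4 the log2 fold change was 2.25 (adjusted p = 0.0421). Tumours 3, 4 and 6 were the 3 highest for Ugt1a9 and Ugt2b38, and tumour 4 was highest for all 3 genes. Without tumours 3, 4 and 6 the adjusted p was 0.0682 for Ugt1a9, 0.261 for Ugt2b38 and 0.0965 for Ugt2b37, and the log2 fold changes were 1.44 for Ugt1a9 and 2.0 for each of the others.

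Ugt3a2, whose human relative uses UDP-glucose and UDP-xylose, was at 32.8, 159.9 and 328 CPM in Hmgb1-deleted tumours and at 10.4, 43.8 and 73.1 CPM in floxed tumours (log2 fold change 2.02 ± 0.57, adjusted p = 0.0473). Ugt3a1 was at 1.16, 6.54 and 14.7 CPM in Hmgb1-deleted tumours and at 0.447, 2.01 and 2.68 CPM in floxed tumours (log2 fold change 2.05 ± 0.58, adjusted p = 0.0470). Both stood close to the threshold. The call of Ugt3a1 ended without Hmgb1-deleted tumour 3, 4 or 6 or any 1 floxed tumour (adjusted p up to 0.106), and that of Ugt3a2 without the same tumours other than floxed tumour 6 (adjusted p up to 0.107). With tumours 3, 4 and 6 all left out, the log2 fold changes were 0.63 for Ugt3a1 (adjusted p = 0.530) and 0.61 for Ugt3a2 (adjusted p = 0.5135). Among the Ugt genes that were not called, Ugt1a1 was at 31.6, 69.1 and 136 CPM in Hmgb1-deleted tumours and at 12.4, 35.9 and 94.7 CPM in floxed tumours (log2 fold change 0.87 ± 0.49, adjusted p = 0.3004), and without tumours 3, 4 and 6 its log2 fold change was -0.19 (adjusted p = 0.869). Ugt2b1 was at 87.3, 219.6 and 522 CPM in Hmgb1-deleted tumours and at 78.5, 111 and 146 CPM in floxed tumours (log2 fold change 1.19 ± 0.41, adjusted p = 0.0984), with tumours 3, 4 and 6 at 312, 522 and 332 CPM and the other 3 within the floxed range. Ugt2b1 passed without tumours 2 and 5 (adjusted p = 0.0155), and without tumours 3, 4 and 6 its log2 fold change was -0.08 (adjusted p = 0.888).

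Sult2a7, of the hydroxysteroid sulfotransferase subfamily, was at 0.476, 3.08, 19.3, 52.0, 0.373 and 15.5 CPM in Hmgb1-deleted tumours 1 to 6, against 0.0497, 0.221 and 0.353 CPM in floxed tumours. The groups did not overlap, but tumours 1 and 5 lay just above the highest floxed tumour (log2 fold change 6.17 ± 1.19, adjusted p = 0.00999). Floxed tumours held at most 9 counts of Sult2a7, which passed the filter on low counts through the Hmgb1-deleted tumours. Without tumours 3, 4 and 6 the log2 fold change was 2.64 (adjusted p = 0.0581). Sult1e1, the estrogen sulfotransferase, was at 1.76, 2.75, 29.4, 33.3, 1.08 and 4.31 CPM in Hmgb1-deleted tumours 1 to 6, against 0.149, 1.06 and 2.43 CPM in floxed tumours (log2 fold change 3.28 ± 0.93, adjusted p = 0.0483). Tumours 3 and 4 were far above the rest. Without tumours 3, 4 and 6 the log2 fold change was 0.58 (adjusted p = 0.658), and leaving out Hmgb1-deleted tumour 3, 4 or 6 or any 1 floxed tumour ended the call (adjusted p up to 0.115).

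Sult4a1 was at 0.161, 0.478 and 1.70 CPM in Hmgb1-deleted tumours and at 2.70, 6.68 and 18.8 CPM in floxed tumours. All Hmgb1-deleted tumours lay below all floxed tumours (log2 fold change -3.60 ± 0.62, adjusted p = 0.00678), and the call held without any 1 library (adjusted p at most 0.0169). Sult1a1 was not called (log2 fold change 0.56 ± 0.46, adjusted p = 0.497). It was at 1217 and 637 CPM in Hmgb1-deleted tumours 5 and 2, the pair that stood apart over all genes, and at 196 to 258 CPM in the other 4, against 181 to 459.8 CPM in floxed tumours. Without the pair its log2 fold change was -0.48 (adjusted p = 0.295). Sult1b1 missed the threshold at 5.60, 19.5 and 50.03 CPM in Hmgb1-deleted tumours and 4.37, 8.54 and 14.9 CPM in floxed tumours (log2 fold change 1.48 ± 0.49, adjusted p = 0.0808), and it passed without Hmgb1-deleted tumour 5 (adjusted p = 0.0345) or without tumours 2 and 5 (adjusted p = 0.0163). Sult2a1 was at 0.0372, 0.187 and 0.246 CPM in Hmgb1-deleted tumours and 0, 0.344 and 2.02 CPM in floxed tumours, and Sult3a1 reached 0.0410 CPM in Hmgb1-deleted tumours and 0.653 CPM in floxed tumours; neither was tested.

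**Figure D3:**
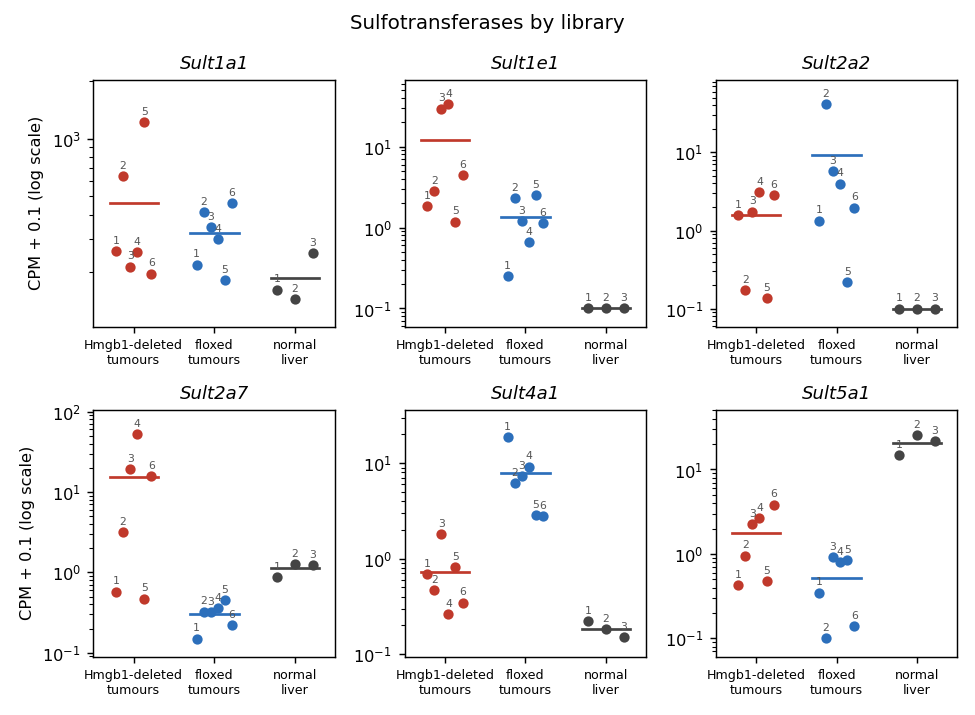
CPM plus 0.1 of 6 Sult genes in each library on a log scale, for Hmgb1-deleted tumours (left), floxed tumours and normal liver (right), with replicate numbers beside the points and group means as bars. Libraries with no counts sit at 0.1; floxed tumour 2 stands at 41.7 CPM for Sult2a2, Hmgb1-deleted tumour 4 at 52.0 CPM for Sult2a7, and Sult4a1 is higher in floxed tumours than in both other groups.

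Gsta2, an alpha class enzyme, was at 19.7, 47.6 and 83.6 CPM in Hmgb1-deleted tumours and at 8.38, 17.2 and 27.1 CPM in floxed tumours. Hmgb1-deleted tumour 6 alone lay inside the floxed range (log2 fold change 1.60 ± 0.38, adjusted p = 0.0237). The call held without tumours 3, 4 and 6 (log2 fold change 1.75, adjusted p = 0.0230) and ended without tumour 4 (adjusted p = 0.0601) or without tumours 2 and 5 (adjusted p = 0.0751). Gsta3 was at 599, 818 and 1179.6 CPM in Hmgb1-deleted tumours and at 285, 425 and 624 CPM in floxed tumours (log2 fold change 0.98 ± 0.25, adjusted p = 0.0287). Gstk1 was at 38.3, 60.2 and 115 CPM in Hmgb1-deleted tumours and at 23.1, 32.5 and 42.8 CPM in floxed tumours (log2 fold change 1.11 ± 0.27, adjusted p = 0.0255). The groups overlapped slightly for both genes. The call of Gsta3 ended without Hmgb1-deleted tumour 3, 4 or 6 or floxed tumour 1 or 3 (adjusted p up to 0.0694), and that of Gstk1 without Hmgb1-deleted tumour 3 or 4 or floxed tumour 1, 5 or 6 (adjusted p up to 0.0621). With tumours 3, 4 and 6 all left out, the log2 fold changes were 0.56 for Gsta3 (adjusted p = 0.209) and 0.57 for Gstk1 (adjusted p = 0.189).

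None of the other Gst genes passed between the tumour groups, among them those that stood above normal liver in floxed tumours. Gsta1 was at 20.7, 28.1 and 93.2 CPM in Hmgb1-deleted tumours and at 2.56, 32.9 and 66.6 CPM in floxed tumours (log2 fold change 0.30 ± 0.58, adjusted p = 0.805). Gsta4 differed by -0.33 ± 0.25 (adjusted p = 0.439) and Gstm1 by 0.44 ± 0.26 (adjusted p = 0.315), and these misses do not show that the levels were equal. Gstm3 was at 210.1, 334 and 988 CPM in Hmgb1-deleted tumours and at 81.8, 163 and 518 CPM in floxed tumours (log2 fold change 1.22 ± 0.51, adjusted p = 0.157); without floxed tumour 2, the highest of its group, it passed (adjusted p = 0.0388). Gstp1 was at 284, 434 and 578 CPM in Hmgb1-deleted tumours and at 297, 313 and 513 CPM in floxed tumours (log2 fold change 0.36 ± 0.20, adjusted p = 0.304). Gstp2 was at 0.672, 6.07 and 14.7 CPM in Hmgb1-deleted tumours, where tumours 2 and 5 held 1.37 and 0.672 CPM, and at 4.66, 11.8 and 82.9 CPM in floxed tumours (log2 fold change -1.75 ± 0.82, adjusted p = 0.208).

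**Figure D4:**
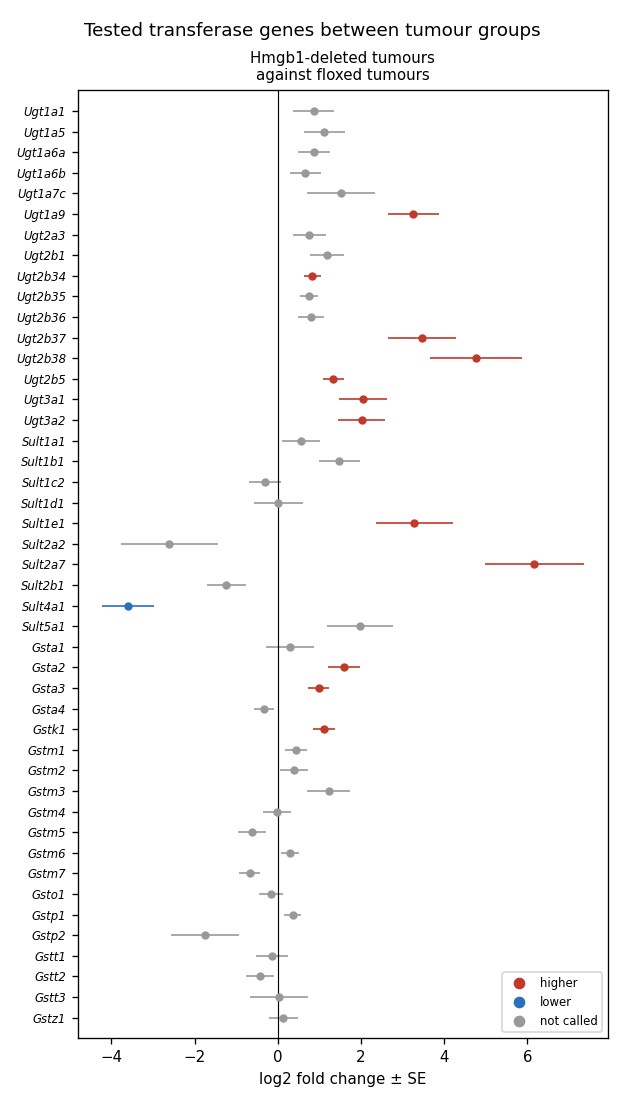
Log2 fold change (Hmgb1-deleted over floxed tumours) with its standard error on the x axis for the 45 tested transferase genes, grouped by family down the page. Red marks the 12 genes called higher, blue the gene called lower (Sult4a1) and grey the 32 not called, and all 16 Ugt points lie to the right of 0.

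Hmgb1-deleted tumours were last set against normal liver of control mice, a comparison in which genotype differs along with the tissue. Fewer Ugt genes passed as lower than the 15 of the floxed tumours, namely Ugt1a1, Ugt1a6a, Ugt1a6b, Ugt2b1 and Ugt3a1, 5 of 17 tested, a count of 4 to 9 when 1 library was left out (9 without Hmgb1-deleted tumour 4). In the fits without 1 library, 7.64% to 17.1% of all genes were lower. Gsta1, Gsta2, Gsta4, Gstm1, Gstm2, Gstm3 and Gstp2 were higher, and Gsta3, Gstp1, Gsto1 and Gstm7 lower. In all, 11 genes rose and 10 fell of 46 tested, while 18.1% of all 13784 tested genes rose and 16.6% fell (34.7% in either direction). The median log2 fold change was -0.48 over the 46 genes, also with Sult1e1 and Sult2a2 at their bounds, and 0.05 over all genes. The 3 normal livers also serve the comparison with floxed tumours, so the 2 comparisons are not independent, and a gene called in one and not in the other is not thereby shown to differ between the tumour groups.

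Ugt1a6b and Ugt1a6a, which conjugate small planar phenols, fell by 1.65 ± 0.21 (adjusted p = 0.00140) and 1.43 ± 0.23 (adjusted p = 0.00289). Ugt1a6b was at 12.3, 17.7 and 26.8 CPM in Hmgb1-deleted tumours and at 47.7, 58.8 and 64.4 CPM in normal liver, with no overlap. Ugt1a1 was at 31.6, 69.1 and 136 CPM in Hmgb1-deleted tumours and at 305, 307 and 342 CPM in normal liver (log2 fold change -2.06 ± 0.44, adjusted p = 0.00815). Ugt3a1 was at 1.16, 6.54 and 14.7 CPM in Hmgb1-deleted tumours and at 61.5, 68.3 and 90.1 CPM in normal liver (log2 fold change -3.31 ± 0.60, adjusted p = 0.00450). Ugt2b1 fell by 2.102 with an SE of 0.52 (adjusted p = 0.0144), a call that ended without normal liver 1 or 2 (adjusted p = 0.0546 and 0.0561). With tumours 3, 4 and 6 left out, 11 Ugt genes were lower and 1 was higher, while 22.8% of all tested genes were lower and 25% higher. In the plot of Ugt genes by library, Hmgb1-deleted tumours 3, 4 and 6 reached 282, 328 and 223 CPM for Ugt3a2 and tumours 1, 2 and 5 stood at 66.0, 97.1 and 32.8 CPM, against 488 to 522 CPM in normal liver.

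Sult5a1 was at 0.329, 1.52 and 3.73 CPM in Hmgb1-deleted tumours and at 14.6, 21.7 and 25.5 CPM in normal liver (log2 fold change -3.63 ± 0.65, adjusted p = 0.00437). Sult1e1 had no counts in normal liver, and its mean in Hmgb1-deleted tumours, 12.1 ± 15.0 CPM (SD, n = 6), was at least 280.3-fold higher than 3 counts over the normal livers (adjusted p = 0.0182). The call of Sult1e1 ended without normal liver 1 or 2 (adjusted p = 0.0596 and 0.0584). Sult1a1 and Sult1b1 were not called (adjusted p = 0.132 and 0.554). Without tumours 3, 4 and 6 both passed, with log2 fold changes of 1.96 for Sult1a1 (adjusted p = 0.0233) and -1.68 for Sult1b1 (adjusted p = 0.0102). Sult2a1 and Sult3a1 were not tested. Of 10 tested Sult genes, 1 was lower and 4 were higher, the others being Sult2a2, Sult2b1 and Sult4a1, named after their values were seen. The 4 higher genes had at most 4 counts in any normal liver and passed the filter on low counts through the tumours. No Sult gene was higher without normal liver 1 or 2, and 1 was without normal liver 3. In these fits 7.38%, 7.57% and 10.5% of all genes were higher.

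Gsta1 was at 20.7, 28.1 and 93.2 CPM in Hmgb1-deleted tumours and at 0.285, 0.447 and 1.13 CPM in normal liver (log2 fold change 6.20 ± 0.82, adjusted p = 0.00149). Gstm1 was at 2227, 3047 and 3573 CPM in Hmgb1-deleted tumours and at 654, 715 and 922 CPM in normal liver (log2 fold change 1.95 ± 0.26, adjusted p = 0.00146), and Gstm3 rose by 3.30 ± 0.57 (adjusted p = 0.00388). None of these groups overlapped, and the 3 calls held without any 1 library. Gsta2 rose by 2.13 ± 0.52 (adjusted p = 0.0139) and Gsta4 by 1.03 ± 0.30 (adjusted p = 0.0266), both lost without normal liver 1 (adjusted p = 0.0662 and 0.116) or 2 (adjusted p = 0.0650 and 0.104). Gsta4 also missed the threshold without tumours 3, 4 and 6 (adjusted p = 0.0516). Gstp2 rose by 3.97 ± 1.03 (adjusted p = 0.0173), lost without any 1 normal liver (adjusted p up to 0.0729). Here too Gsta1 and Gstp2 passed the filter on low counts through the tumours.

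Gstp1 fell by 0.99 ± 0.22 (adjusted p = 0.00939) and kept its call without any 1 library (adjusted p at most 0.0452). Gsta3 fell by 0.99 ± 0.25 (adjusted p = 0.0149), to 599, 818 and 1179.6 CPM in Hmgb1-deleted tumours against 1648, 1721 and 1751 CPM in normal liver, a call lost without any 1 normal liver (adjusted p up to 0.0622). Gsto1, an omega class thiol transferase, and Gstm7 passed narrowly (adjusted p = 0.0402 and 0.0496), and each was lost in 8 of 9 fits that left out 1 library (adjusted p up to 0.135 and 0.181) and without tumours 2 and 5 (adjusted p = 0.0906 and 0.117). With normal liver 1 or 2 left out, 3 genes were higher and 6 lower, and with normal liver 3 left out, 6 were higher and 7 lower. Fewer of all genes passed in these fits too. Without normal liver 1, 2 and 3, 7.38%, 7.57% and 10.5% of all genes were higher and 7.64%, 8.26% and 11.6% lower. Without tumours 3, 4 and 6, 12 genes were higher and 22 lower, while 25% of all tested genes were higher and 22.8% lower.

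**Figure D5:**
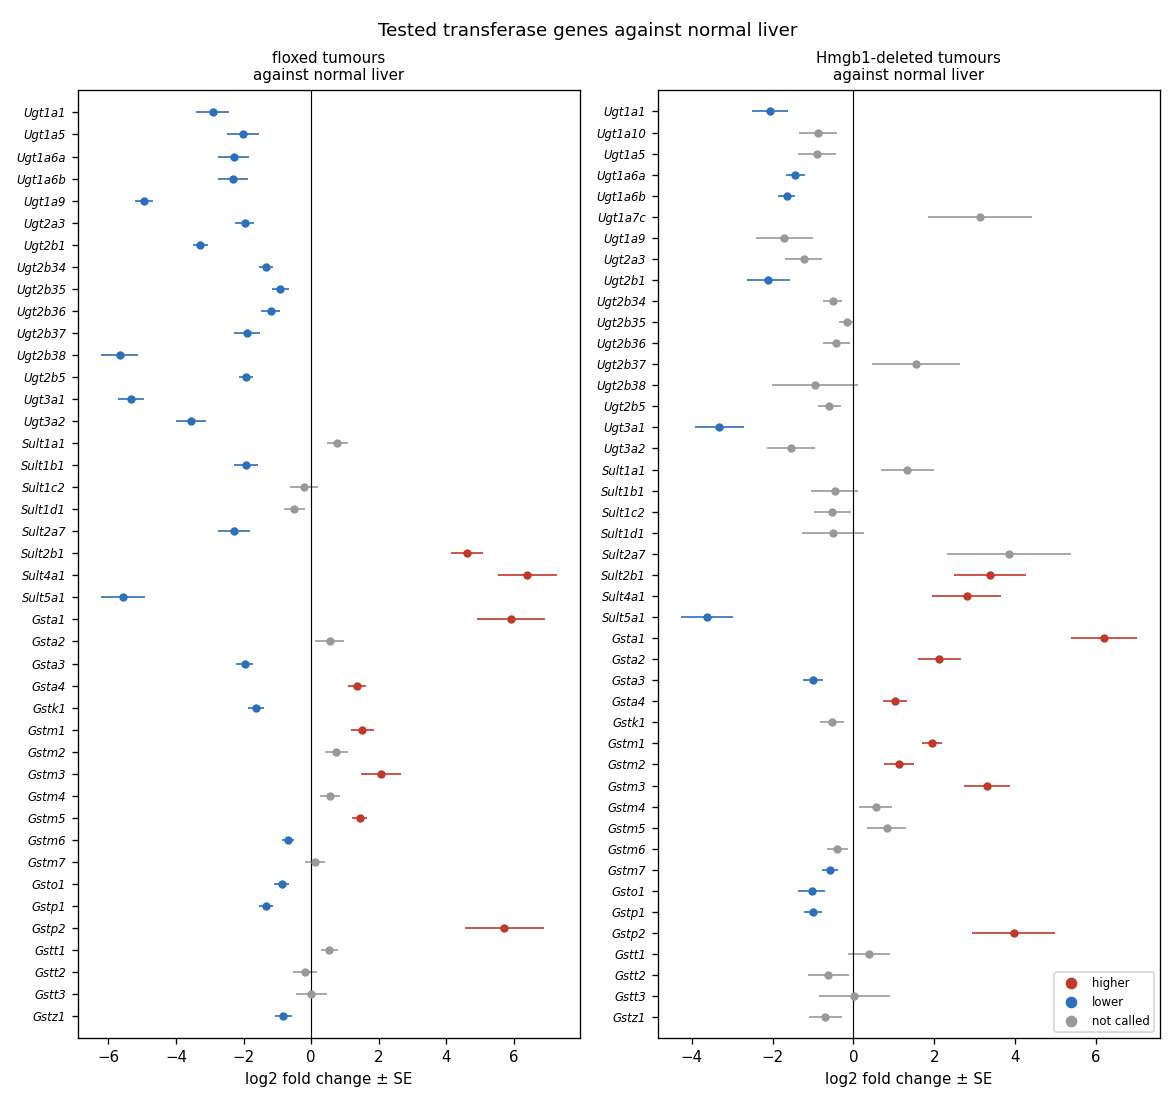
Log2 fold change with its standard error on the x axis for floxed tumours over normal liver (left panel, 42 genes) and Hmgb1-deleted tumours over normal liver (right panel, 44 genes), grouped by family down the page. Red marks genes called higher, blue genes called lower and grey those not called; all 15 Ugt genes are blue on the left and 5 of 17 on the right, and Sult1e1 and Sult2a2, which have no counts in normal liver, are left out.

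The other genes of the pathway were taken from fixed lists. Of 16 genes that supply the cosubstrates, 4 rose and none fell in Hmgb1-deleted against floxed tumours (all genes 4.45% and 3.33%). The median log2 fold change of the 16 was 0.15 (all genes 0.02). Ugdh, which makes UDP-glucuronate for the Ugt enzymes, averaged 439.7 ± 109 CPM in Hmgb1-deleted tumours and 226 ± 63.7 CPM in floxed tumours (SD, n = 6 each; log2 fold change 0.98 ± 0.23, adjusted p = 0.0234). The others were Bpnt1, which clears the by-product of sulfation, Gclm, a subunit of the rate-limiting enzyme of glutathione synthesis, and Cth, which makes cysteine. Of the 16, 1 rose without tumours 3, 4 and 6. None rose without Hmgb1-deleted tumour 4, 1 to 2 without Hmgb1-deleted tumour 3 or 6 or floxed tumour 2, 3, 4 or 5, and 2 fell without floxed tumour 5. The shares of all genes that rose were 2.47% without tumours 3, 4 and 6 and 2.16% without Hmgb1-deleted tumour 4. They were 2.85% to 3.57% without the other tumours named, and 3.29% of all genes fell without floxed tumour 5. Against normal liver 3 of the 16 rose and 6 fell in floxed tumours, and 5 rose and 4 fell in Hmgb1-deleted tumours. Of all genes, 24.9% rose and 23.8% fell in floxed tumours and 18.1% rose and 16.6% fell in Hmgb1-deleted tumours. Papss2, which makes the sulfate donor PAPS in liver, averaged 107 ± 28.7 CPM in floxed tumours and 258 ± 74.2 CPM in normal liver (log2 fold change -1.26 ± 0.25, adjusted p = 0.00243). Slc7a11, the cystine importer that feeds glutathione synthesis, averaged 33.9 ± 14.8 CPM in Hmgb1-deleted tumours, 50.7 ± 29.6 CPM in floxed tumours and 0.0135 ± 0.0235 CPM in normal liver.

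A further list held 19 other phase II and related enzymes, among them Ephx1 and Nqo1, which attach no group. Of these 19, 16 were tested between the tumour groups, where 4.45% of all genes rose and 3.33% fell. Of the 16, 7 rose and none fell in Hmgb1-deleted tumours (median log2 fold change 0.99). Among them were Inmt, Glyat, Baat, Mgst1, Mgst3 and Ephx1. Without tumours 3, 4 and 6, 7 of the list rose as well, when 2.47% of all genes rose. Inmt, which methylates indole amines, averaged 1041 ± 644 CPM in Hmgb1-deleted tumours and 105 ± 49.96 CPM in floxed tumours (log2 fold change 3.34 ± 0.49, adjusted p = 0.00420). Mgst1, a membrane-bound glutathione transferase outside the cytosolic classes, averaged 3877 ± 2002 CPM in Hmgb1-deleted tumours and 1229 ± 257 CPM in floxed tumours (log2 fold change 1.67 ± 0.33, adjusted p = 0.0101). Against normal liver, 10 of 17 tested were lower and 5 higher in floxed tumours (all genes 23.8% and 24.9%). In Hmgb1-deleted tumours 2 were lower and 5 higher (all genes 16.6% and 18.1%). There 3 were higher when normal liver 1 or 2 was left out, 1 was lower without normal liver 1 or 3 and none was lower without normal liver 2. Of all genes, 7.38% and 7.57% were higher without normal liver 1 and 2. Without normal liver 1, 2 and 3, 7.64%, 8.26% and 11.6% of all genes were lower. Nqo1, a quinone reductase, averaged 69.0 ± 30.6 CPM in Hmgb1-deleted tumours, 63.1 ± 34.1 CPM in floxed tumours and 6.48 ± 1.14 CPM in normal liver, and rose in both comparisons with normal liver (log2 fold changes 3.44 ± 0.46 and 3.29 ± 0.47, adjusted p = 0.00155 and 0.000305).

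Of 17 regulators of these genes, 2 rose and none fell in Hmgb1-deleted against floxed tumours (median log2 fold change 0.24), against 4.45% and 3.33% of all genes. Ghr, the growth hormone receptor, which acts through STAT5 on sex-dependent liver genes, averaged 282 ± 138 CPM in Hmgb1-deleted tumours and 104 ± 15.4 CPM in floxed tumours (adjusted p = 0.0101), and Nr1h4, the bile acid receptor, rose as well. Against normal liver, 23.8% of all genes fell and 24.9% rose in floxed tumours, and 16.6% fell and 18.1% rose in Hmgb1-deleted tumours. Of the regulators, 12 fell and 2 rose in floxed tumours (median log2 fold change -1.06), and 8 fell and 2 rose in Hmgb1-deleted tumours (median -0.55). Leaving out 1 library gave 3 to 9 lower and 0 to 2 higher in Hmgb1-deleted tumours, with 3 and 4 lower and none higher without normal liver 2 and 1, and 5 lower without normal liver 3 or Hmgb1-deleted tumour 1 or 5. In these fits 7.64% to 17.1% of all genes were lower and 7.38% to 18.9% higher. Without normal liver 2 and 1, 8.26% and 7.64% of all genes were lower. Nr1i3, the constitutive androstane receptor that induces drug-handling genes, averaged 24.7 ± 10.5 CPM in floxed tumours and 124 ± 38.1 CPM in normal liver (log2 fold change -2.33 ± 0.31, adjusted p = 0.000206). Nfe2l2, which encodes the factor that binds the antioxidant response element, rose by 0.79 ± 0.19 in Hmgb1-deleted tumours (adjusted p = 0.0132) and by 0.65 ± 0.21 in floxed tumours (adjusted p = 0.0233). These are RNA levels and say nothing of the activity of the factors.

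For export, uptake and hydrolysis of conjugates, 13 of 14 listed genes were matched. Between the tumour groups 12 were tested, and Abcg2, an efflux pump for sulfates, and Slco1b2, a liver uptake transporter of organic anions, rose in Hmgb1-deleted tumours (log2 fold changes 0.86 ± 0.17 and 2.16 ± 0.46, adjusted p = 0.0106 and 0.0164), while none rose without tumours 3, 4 and 6. Between the tumour groups 4.45% of all genes rose and 3.33% fell, and 2.47% rose without tumours 3, 4 and 6. Against normal liver, 2 rose and 6 of 12 listed genes fell in floxed tumours (all genes 24.9% and 23.8%). In Hmgb1-deleted tumours 2 rose and 5 of 13 fell (all genes 18.1% and 16.6%). Slco1b2 averaged 356 ± 238 CPM in Hmgb1-deleted tumours, 80.5 ± 43.8 CPM in floxed tumours and 1558 ± 43.1 CPM in normal liver. Abcc4, an efflux pump that faces the blood, averaged 73.0 ± 22.8 CPM in Hmgb1-deleted tumours, 56.6 ± 24.7 CPM in floxed tumours and 3.21 ± 0.4659 CPM in normal liver.

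Markers of other liver cells moved with some groups, and their part in the results was not tested. The 6 cholangiocyte markers summed to 205 to 6113 CPM in Hmgb1-deleted tumours, 60.5 to 1766 CPM in floxed tumours and 67.4 to 79.0 CPM in normal liver, most of it Spp1, which other cells make too. Hmgb1-deleted tumour 2 was highest, with Spp1 at 6024 CPM. Against normal liver 3 of 6 tested cholangiocyte markers rose in floxed tumours and 1 of 5 in Hmgb1-deleted tumours. All 3 tested neutrophil markers rose in floxed tumours and 1 of 3 in Hmgb1-deleted tumours, and 2 of 6 lymphocyte markers rose in floxed tumours and 3 of 6 in Hmgb1-deleted tumours. Of 6 markers each, 1 macrophage and 1 endothelial marker rose in either tumour group, and 1 stellate cell marker fell in Hmgb1-deleted tumours. Of all genes, 24.9% rose in floxed tumours and 18.1% in Hmgb1-deleted tumours, where 16.6% fell. Neutrophil markers (4 of 5 matched) summed to 1.98 to 10.04 CPM in Hmgb1-deleted tumours, 2.15 to 25.96 CPM in floxed tumours and 1.67 to 3.25 CPM in normal liver, with Mpo at 0 there. Lymphocyte markers summed to 6.77 to 14.0 CPM in Hmgb1-deleted tumours, 4.57 to 30.1 CPM in floxed tumours and 5.56 to 8.02 CPM in normal liver. Macrophage markers summed to 60.8 to 220.4 CPM in Hmgb1-deleted tumours, 61.9 to 159 CPM in floxed tumours and 119.0 to 165 CPM in normal liver. Endothelial markers summed to 112 to 239 CPM in Hmgb1-deleted tumours, 163 to 415 CPM in floxed tumours and 138 to 231 CPM in normal liver, and those of stellate cells and fibroblasts to 186 to 279 CPM in Hmgb1-deleted tumours, 169 to 825 CPM in floxed tumours and 226 to 298 CPM in normal liver. Between the tumour groups no marker of hepatocytes or of these cell types was called by edgeR.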

How the data were processed

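Poly-A RNA sequencing of 15 mouse libraries was used, 6 of Hmgb1-deleted tumours, 6 of floxed tumours and 3 of normal liver, grouped by the genotype and tissue labels. The values are raw read counts per gene symbol as the authors deposited them. The submitters' processing notes name bcl2fastq 1.8.4, Bowtie2 2.2.4, TopHat2 2.1.0, HTSeq 0.6.1 and the mm9 build. The gene annotation is not given in the sources used here, nor is whether strand was used or how multiply matching reads were counted.

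All 23284 symbols entered each fit. Each pair of groups was compared with the edgeR 4.0.16 quasi-likelihood test in R 4.3.3 (filterByExpr, TMM scaling, robust dispersion), with Benjamini-Hochberg adjustment over all tested genes and a call at an adjusted p under 0.05. A printed error after ± is the standard error of a log2 fold change (its size over the square root of F) or the SD of CPM. A group without counts was set to 3 counts over the group, and such folds are lower bounds. The procedure was tested on simulated counts. Over 33 pairs of libraries within a group, chi-square per degree of freedom was 27.9 or more, so each pair differed beyond sampling noise.

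The members and the lists of pathway and marker genes were chosen with earlier results of these data known. Named genes are every called member between the tumour groups, and in each comparison with normal liver the 4 called genes of smallest p per family and direction with a mean log2 CPM of at least 1. Added to these in every comparison were Ugt1a1, Ugt2b1, Sult1a1, Sult1b1, Sult2a1, Sult3a1, Gsta1, Gsta2, Gsta4, Gstm1, Gstm3, Gstp1 and Gstp2. Other members were named after their values were seen.

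Alternatives were RLE scaling, no filter on low counts, DESeq2 1.42.0, all 15 libraries in 1 fit, a block for the replicate number, and leaving out each library in turn. Against normal liver, the block fits used only tumours and normal livers numbered 1 to 3. Chosen after seeing the data were library totals without a factor, the fits without Hmgb1-deleted tumours 2 and 5 or without tumours 3, 4 and 6, and numbers 1 to 3 without the block. Same-numbered tumours did not deviate together, with correlations of -0.262 to 0.227 between the tumour groups, so the numbers were not taken to pair samples.

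Promoters are the 250 bases before the start sites in RefSeq (GRCm38.p6), and 51 of 59 genes matched by symbol. Some listed genes and 1 motif search are not reported here.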

Additional observations from a re-analysis of the deposited data

Results flagged for a closer look

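In groups of 6, a tumour was marked where its gap to the nearest tumour was large against the range of its group. Chance meets this criterion in about 1 of 20 groups if values follow a normal distribution, which was not tested for CPM. Of 65 groups over 33 named genes, 10 were marked, and each mark was a high value, so the number of marks cannot be set against that rate.

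Floxed tumour 2 accounted for 4 of them. It stood at 518 CPM for Gstm3 (next tumour 191 CPM), 513 CPM for Gstp1 (345 CPM), 2.02 CPM for Sult2a1 (0.437 CPM) and 41.7 CPM for Sult2a2 (5.71 CPM). Other floxed tumours marked were tumour 6 at 82.9 CPM for Gstp2 (14.4 CPM) and tumour 3 at 0.653 CPM for Sult3a1 (0.0562 CPM).

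Hmgb1-deleted tumour 4 stood at 52.0 CPM for Sult2a7 (next tumour 19.3 CPM) and at 35.2 CPM for Ugt2b37 (8.05 CPM). Hmgb1-deleted tumour 2 stood at 34.0 CPM for Gstm5 (17.2 CPM), and Hmgb1-deleted tumour 3 at 1.70 CPM for Sult4a1 (0.709 CPM).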

How the results depend on the processing

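No named gene that was called changed direction under any alternative run. Of the alternatives of named genes, 1018 kept their side of the threshold, 104 lost a call and 16 gained one. Between the tumour groups, 4 to 13 genes were higher and 1 to 2 lower when 1 library was left out. Without Hmgb1-deleted tumours 3, 4 and 6, 2 were higher and 4 lower, and without tumours 2 and 5, 3 were lower. For Hmgb1-deleted tumours against normal liver, 3 to 12 genes were higher and 6 to 14 lower when 1 library was left out, 22 were lower without tumours 3, 4 and 6, and 7 were higher with numbers 1 to 3 only. In floxed tumours against normal liver, 8 to 14 genes were higher and 23 to 24 lower when 1 library was left out. In the fits without 1 library, 2.16% to 4.56% of all genes were higher between the tumour groups. Against normal liver the range was 16.6% to 25.9% in floxed tumours and 7.38% to 18.9% in Hmgb1-deleted tumours. In the same fits 2.18% to 3.29% of all genes were lower between the tumour groups. Against normal liver 18% to 25.6% were lower in floxed tumours and 7.64% to 17.1% in Hmgb1-deleted tumours. For the latter, 22.8% of all genes were lower without tumours 3, 4 and 6, and 15.2% higher with numbers 1 to 3 only. The causes were not tested.

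Against normal liver, fits with the replicate block held only numbers 1 to 3 of each group. With the block, 8 genes were higher and 1 lower between the tumour groups, 12 and 24 in floxed tumours against normal liver, and 8 and 14 in Hmgb1-deleted tumours against normal liver. Of all genes, 3.44%, 25.1% and 12.1% were higher in these fits and 2.96%, 24.5% and 10.8% lower. Of same-numbered samples, 2 of 6, 2 of 3 and 1 of 3 correlated best with their own number in these comparisons, and block results were read as shared numbers only. Between the tumour groups the block ended the calls of Ugt2b34, Ugt2b37, Ugt3a1 and Sult1e1, and fits without the filter those of Ugt3a1, Ugt3a2 and Sult1e1. Ugt2b1 and Sult1b1 passed there with DESeq2 and with library totals. In floxed tumours against normal liver, Gsta1 lost its call with the block (adjusted p = 0.0753). In the same libraries without the block Gsta1 passed (adjusted p = 0.0113). In floxed tumours against normal liver, Sult1a1 passed with the block, DESeq2 and library totals. With library totals in place of TMM scaling the median log2 fold change of all genes was 0.20 between the tumour groups (0.02 with TMM) and 0.33 between Hmgb1-deleted tumours and normal liver (0.05 with TMM), and 79.3% and 73.7% of called genes were higher (57.2% and 52.1% with TMM). Depth limits genes near 3 counts, and shared sequence limits Gsta1, Gsta2, Gstp2, Sult2a2, Ugt2b5, Ugt2b38 and the Ugt1a cluster.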
